A study of Mus musculus with 167 samples.

Results

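Nr1i3 and Nr1i2 encode CAR and PXR, the 2 nuclear receptors that were edited in the mice of this study, and Tomm40l, Pcp4l1, Apoa2, Cfap126 and Sdhc lie within 4 protein-coding genes of Nr1i3 on mouse chromosome 1. All probe sets that the array's annotation assigns to these 7 genes were taken, which gave 10 of the 45037 probe sets that are not array controls. Nr1i2, Tomm40l and Sdhc have 2 probe sets each and the other genes 1. The values that follow are levels on the log2 scale after robust multi-array averaging (RMA), and a level is compared only with the same probe set in other samples.

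The study gave phenobarbital to male C57BL/6 mice of 3 genotypes and profiled their livers on 1-colour expression arrays. The knockout mice (CARKO-PXRKO, written KO here) lack both receptors, the humanized mice (CARh-PXRh, written HU) carry human CAR and PXR, and wild-type mice (WT) are the genetic reference, all from TaconicArtemis. In each genotype, one arm drank water with phenobarbital (PB, 0.05% weight by volume) and the control arm drank water without it. Animals were killed after 1, 7, 14, 28 or 91 days of dosing, or on day 119, which ended 4 weeks of recovery. The treatment text also names a younger starting age and lower concentrations, partly for a separate dose study, and the age and dose given here are those of the labels and of the time course. This makes 36 groups of 3 to 5 animals: 28 KO PB, 27 KO control, 26 HU PB, 29 HU control, 29 WT PB and 27 WT control samples. The age is labelled as 9 to 11 weeks, and each sample is RNA from powdered liver of 1 animal. The 2 receptors were edited together, so the effect of either locus alone cannot be told apart from that of the other in these groups.

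CAR and PXR are ligand-regulated transcription factors that bind DNA together with the retinoid X receptor and switch on genes for the uptake, oxidation, conjugation and export of drugs and steroids. Phenobarbital activates CAR indirectly in hepatocytes, through the epidermal growth factor receptor and the release of CAR into the nucleus, and Cyp2b10 is the classical mouse target. CAR and PXR are also known to be transcribed under the control of HNF4A, the glucocorticoid receptor and PPARA. Of the neighbours, Tomm40l is a paralogue of the mitochondrial import pore Tomm40, Pcp4l1 is a small IQ-motif protein related to the calmodulin regulator PCP4, Apoa2 is an apolipoprotein of HDL, Cfap126 is a protein of cilia and basal bodies, and Sdhc anchors succinate dehydrogenase in the inner mitochondrial membrane.

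Promoter sequences from RefSeq (build GRCm38.p6, 250 bases before to 50 bases after the annotated start) were held for 5 of the 7 genes, and Tomm40l and Sdhc were not among them. The 3 promoters shown are those of the 2 edited genes and of Pcp4l1, which lies beside Nr1i3 and differed from wild type in opposite directions in the edited strains. Capitals mark matches to the receptor binding motifs AGGTCA and AGTTCA or to the TATA box TATAAA, searched on both strands.
Nr1i3 (chr1:171213720-171214019, plus strand): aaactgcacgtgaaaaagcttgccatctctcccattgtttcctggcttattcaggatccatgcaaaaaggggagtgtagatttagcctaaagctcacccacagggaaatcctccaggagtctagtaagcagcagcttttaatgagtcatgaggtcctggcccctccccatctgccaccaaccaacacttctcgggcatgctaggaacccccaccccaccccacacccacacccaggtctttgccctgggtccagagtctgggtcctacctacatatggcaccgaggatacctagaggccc
Nr1i2 (chr16:38294775-38295074, minus strand): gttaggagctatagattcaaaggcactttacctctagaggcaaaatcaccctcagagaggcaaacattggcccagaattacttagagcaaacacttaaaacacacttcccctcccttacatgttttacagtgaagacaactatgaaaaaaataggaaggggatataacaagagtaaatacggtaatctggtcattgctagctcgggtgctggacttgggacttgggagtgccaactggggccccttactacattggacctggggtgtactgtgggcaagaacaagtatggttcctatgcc
Pcp4l1 (chr1:171196219-171196518, minus strand): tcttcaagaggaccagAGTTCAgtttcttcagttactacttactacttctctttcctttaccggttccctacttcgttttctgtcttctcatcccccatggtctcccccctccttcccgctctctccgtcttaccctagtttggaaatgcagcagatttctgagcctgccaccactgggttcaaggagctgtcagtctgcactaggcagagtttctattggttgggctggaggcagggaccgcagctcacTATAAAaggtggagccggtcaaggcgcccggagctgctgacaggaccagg
The Nr1i3 and Nr1i2 windows held none of the 3 motifs. The Pcp4l1 window held AGTTCA at position 17 and TATAAA at position 251, counted from 1 at the 5′ end. Apoa2, which also differed in opposite directions but by less, has 2 windows, with TATAAA in one and AGGTCA on the other strand in the other. Of 32851 promoter windows of this length, 16.3% held AGGTCA, 14% AGTTCA and 13.6% TATAAA, so a match is common and is only a description of the letters. The Pcp4l1 and Nr1i3 genes are read in opposite directions, with 17201 bases between these windows. In the same annotation, the span of Tomm40l overlaps the spans of Nr1i3 and Apoa2. The strand of Tomm40l and the positions of array probes were not used, so what the overlap means for the probe sets was not tested.

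Hepatocyte markers (7 of 8 listed genes tested) had a mean level of 13.64 to 14.07 in every sample, as the liver label says. Some samples stand apart. Arrays of KO animals 4019 (day 28) and 4024 (day 91) were nearly identical (SD of their log2 difference 0.0573, against 0.122 for the closest pair of the rest), as were 2 arrays of HU animals 6026 and 6030 in 1 group (SD 0.0634). The HU pair was averaged and counted as 1 sample, which leaves 166 of 167 arrays as samples, and the KO pair was kept as labelled. Pancreas acinar markers (5 of 6 listed genes tested) had a mean level above 5.5 in 33 of the 166 samples: they reached 9.21 in KO PB, 10.5 in KO control, 12.75 in HU PB, 9.95 in HU control, 9.66 in WT PB and 11.55 in WT control samples, with medians of 4.62 to 4.72 in the 6 arms. All 5 were lower in HU than in WT controls, and none differed in the KO comparisons or with PB. Member calls that the fit without the 33 samples lost or gained are given with both values, and part of the difference in any of these bulk livers may be more or fewer cells of a type, which cannot be told apart from more or less RNA per cell.

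Nr1i3 and Nr1i2 were far lower in both edited strains than in wild type, in both arms and on every day. Nr1i3 (probe set 1425392_a_at) had a lowest, median and highest level of 4.71, 4.94 and 5.38 in the 28 KO PB samples and 4.80, 5.05 and 5.30 in the 26 HU PB samples, against 7.74, 8.20 and 8.87 in the 29 WT PB samples. Among controls it had 4.67, 4.94 and 5.11 in KO and 4.85, 5.07 and 5.46 in HU, against 7.87, 8.43 and 8.91 in WT. No edited animal reached the lowest wild-type animal, and the edited groups overlapped each other.

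In the edited strains the receptor signal was at or below the middle of the array. Nr1i3 was above the array's median on 2 of 55 KO and 10 of 55 HU samples, against 56 of 56 WT samples, and each Nr1i2 probe set on 0 of 55 KO and 0 of 55 HU samples, against 56 of 56 WT samples. The Nr1i2 probe sets were thus tested through their wild-type level alone and had to differ. The fits for both receptors serve as a check of the labels, and each fold is read as a lower bound.

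The difference for Nr1i3 was -3.29 ± 0.047 (± is the standard error of the fit) in KO against WT with PB and -3.48 ± 0.049 in controls, or at least 9.81-fold and 11.2-fold lower. In HU it was -3.22 ± 0.048 with PB and -3.33 ± 0.048 in controls, or at least 9.30-fold and 10.1-fold lower. The limma fit gave adjusted p between 2.91e-103 and 2.2e-104 in 3 of these comparisons and 2.16e-100 in HU against WT with PB. A difference is called here when the Benjamini-Hochberg adjusted p over the 25780 tested probe sets is below 0.05. All 10 member probe sets were among those tested, which means that at least 3 arrays placed them above that array's median.

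Nr1i2 showed the same order on both of its probe sets. On 1451807_at, the lowest, median and highest levels were 3.45, 3.66 and 4.01 in KO PB and 3.34, 3.69 and 3.96 in HU PB, against 7.10, 7.59 and 8.02 in WT PB. In controls they were 3.33, 3.59 and 3.75 in KO and 3.38, 3.76 and 4.19 in HU, against 6.91, 7.52 and 8.01 in WT. The groups of edited and wild-type animals did not overlap. The difference was -3.88 ± 0.050 (KO minus WT, PB), -3.94 ± 0.052 (KO minus WT, controls), -3.89 ± 0.051 (HU minus WT, PB) and -3.76 ± 0.050 (HU minus WT, controls), or at least 13.5-fold to 15.4-fold lower.

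On the other Nr1i2 probe set, 1425723_at, levels averaged 3.57 ± 0.14 in KO PB and 3.74 ± 0.18 in HU PB, against 6.62 ± 0.25 in WT PB (SD, n = 28, 26 and 29). Control levels averaged 3.53 ± 0.13 in KO and 3.68 ± 0.13 in HU, against 6.48 ± 0.27 in WT (SD, n = 27, 29 and 27). The differences from WT lay between -3.05 and -2.80, at least 6.95-fold to 8.26-fold lower, and again no edited animal reached a wild-type one.

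**Figure D1:**
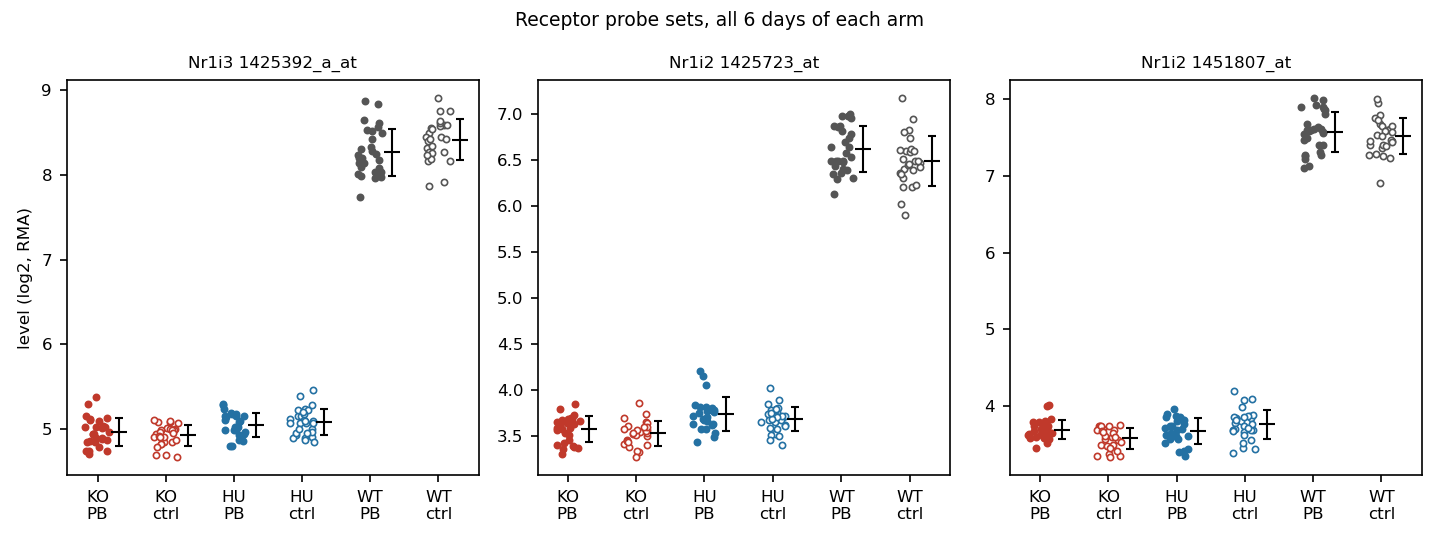
Level (log2, RMA) of the Nr1i3 probe set and both Nr1i2 probe sets in every sample of the KO, HU and WT mice (filled points PB, open points control), with the mean and SD of each arm as the bar beside the points. On each of the 3 probe sets every KO and HU sample lies below every WT sample.

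The signal that remained in the edited strains was low. Array medians over all probe sets ran from 5.146 to 5.231, and the mean Nr1i3 level in KO (4.95 ± 0.15, SD, n = 55) and HU (5.07 ± 0.15, n = 55) lay below them, as did both Nr1i2 probe sets. At these levels HU minus KO was 0.08 with PB and 0.15 in controls for Nr1i3, 0.16 and 0.17 for Nr1i2 1425723_at, and -0.02 and 0.19 for Nr1i2 1451807_at. No order between the edited strains is read from these values. The arrays carry mouse probe sets, and whether any of them reads the human transcripts was not tested.

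The 2 Nr1i2 probe sets rose and fell together among wild-type animals once group means were removed (Pearson r = 0.66 over 56 animals, as a description). In KO and HU animals the same correlation was 0.16 over 55 animals each, at levels of 3.27 to 4.20. Nr1i3 and Nr1i2 themselves went together little among wild-type animals (r = 0.24 with 1425723_at and 0.08 with 1451807_at). These values share arrays and depend on the same normalisation.

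Of the 10 member probe sets, 9 were lower in KO than in WT controls (20.5% of all tested probe sets were called in this comparison) and 8 in the PB arm (25.4%). In HU against WT, 7 were called in controls (28.1%) and 7 with PB (29.5%), in each arm 3 higher and 4 lower. Set against each other, HU was higher than KO on 7 member probe sets in controls (17.7%) and on 5 with PB (30%). Of the members called between HU and KO, 3 in controls and 1 with PB are receptor probe sets at the low levels described above. Both Nr1i2 probe sets and 1 of Tomm40l passed the filter on dim probe sets through wild-type samples alone, so these counts support nothing about the members as a set. The fit without the acinar samples gave counts of 8 in KO against WT controls, where Sdhc 1448630_a_at was lost, and 4 in HU against KO with PB, where Cfap126 was lost (0.10, adjusted p = 0.0602, against 0.11 and 0.0127 with them). The other 4 counts were the same.

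Tomm40l, the gene next to Nr1i3 on its downstream side, was lower in KO and higher in HU than in wild type on 1 of its probe sets, and lower in both strains on the other. On 1429382_at the lowest, median and highest levels were 5.51, 6.28 and 6.65 in KO PB and 7.95, 8.22 and 8.42 in HU PB, against 6.98, 7.36 and 7.73 in WT PB. In controls they were 5.69, 6.27 and 6.72 in KO and 7.90, 8.11 and 8.41 in HU, against 6.90, 7.38 and 7.62 in WT. The 3 genotypes did not overlap in either arm, with KO lowest, WT between and HU highest.

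On this probe set the difference from WT was -1.16 ± 0.049 in KO with PB and -1.10 ± 0.051 in controls (2.24-fold and 2.14-fold lower, adjusted p = 1.1e-46 and 3.52e-42). In HU it was 0.86 ± 0.050 with PB and 0.79 ± 0.050 in controls (1.81-fold and 1.73-fold higher, adjusted p = 4.67e-32 and 1.82e-29). HU exceeded KO by 2.02 ± 0.051 with PB and 1.89 ± 0.050 in controls, or 4.05-fold and 3.70-fold. The difference held its direction on each of the 6 days in both arms: it ran from -1.40 to -0.95 in KO and from 0.65 to 1.08 in HU. Taking 1 representative probe set for each of 12634 genes, Tomm40l ranked 29th in KO and 33rd in HU by size of difference from WT with PB, and 23rd and 58th in controls.

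The other Tomm40l probe set, 1455614_at, gave a different picture in HU. Its lowest, median and highest levels were 2.87, 3.21 and 3.43 in KO PB and 3.02, 3.18 and 3.54 in HU PB, against 4.54, 4.95 and 5.60 in WT PB. Control levels were 2.80, 3.21 and 3.58 in KO and 3.0, 3.19 and 3.54 in HU, against 4.15, 4.76 and 5.31 in WT. Here both edited strains lay below every wild-type animal and overlapped each other. It was above the array's median on 0 of 55 KO and 0 of 55 HU samples, against 8 of 56 WT samples, so it is dim in wild type too and was tested through WT samples alone.

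The difference from WT on 1455614_at was -1.79 ± 0.048 in KO and -1.76 ± 0.049 in HU with PB, and -1.59 ± 0.050 in KO and -1.57 ± 0.049 in HU among controls. A probe set that passes the filter through wild type alone had to differ, and these sizes are read as lower bounds. HU minus KO was 0.03 with PB and 0.02 in controls, at levels where no order is read. The 2 probe sets also did not go together among animals within groups (r = 0.11 in KO, -0.41 in HU and -0.23 in WT, over 55, 55 and 56 animals). The positions of their probes within the gene were not used here, and which transcripts each one reads was not tested.

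Pcp4l1, the neighbour on the other side of Nr1i3, was lower in KO and higher in HU than in wild type. The lowest, median and highest levels were 4.54, 4.99 and 5.44 in KO PB and 5.35, 5.98 and 6.55 in HU PB, against 4.90, 5.25 and 5.47 in WT PB. In controls they were 4.58, 5.00 and 5.31 in KO and 5.16, 6.45 and 7.65 in HU, against 5.01, 5.44 and 5.83 in WT. Ranges overlapped between genotypes, but 24 of 26 HU PB and 23 of 29 HU control animals lay above every wild-type animal of their arm. Pcp4l1 was above the array's median on 11 of 55 KO, 54 of 55 HU and 40 of 56 WT samples. Its level in KO is thus low, and lower values there may not show.

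In HU, Pcp4l1 exceeded WT by 0.77 ± 0.079 with PB (1.70-fold, adjusted p = 5.21e-15) and by 0.96 ± 0.077 in controls (1.95-fold, adjusted p = 3.56e-21). In KO it was lower by -0.41 ± 0.079 in controls (1.33-fold, adjusted p = 2.92e-05) and by -0.20 ± 0.077 with PB (1.15-fold, adjusted p = 0.0479). The last call was at the threshold: it was lost under quantile normalization (adjusted p = 0.0563), without a filter on dim probe sets (0.0687), without the near-identical KO arrays (-0.17, 0.0921) and in 3 of the 5 refits that left out 1 animal of each group (0.108 to 0.172). By day, KO minus WT in the PB arm was -0.17, -0.28, -0.09, 0.01 and -0.17 on days 1, 7, 14, 28 and 91. It was largest on day 119, after recovery (-0.47). HU exceeded KO by 0.96 ± 0.079 with PB and 1.37 ± 0.078 in controls. Pcp4l1 ranked 43rd with PB and 31st in controls among 12634 genes in HU, and 1011th and 205th in KO.

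**Figure D2:**
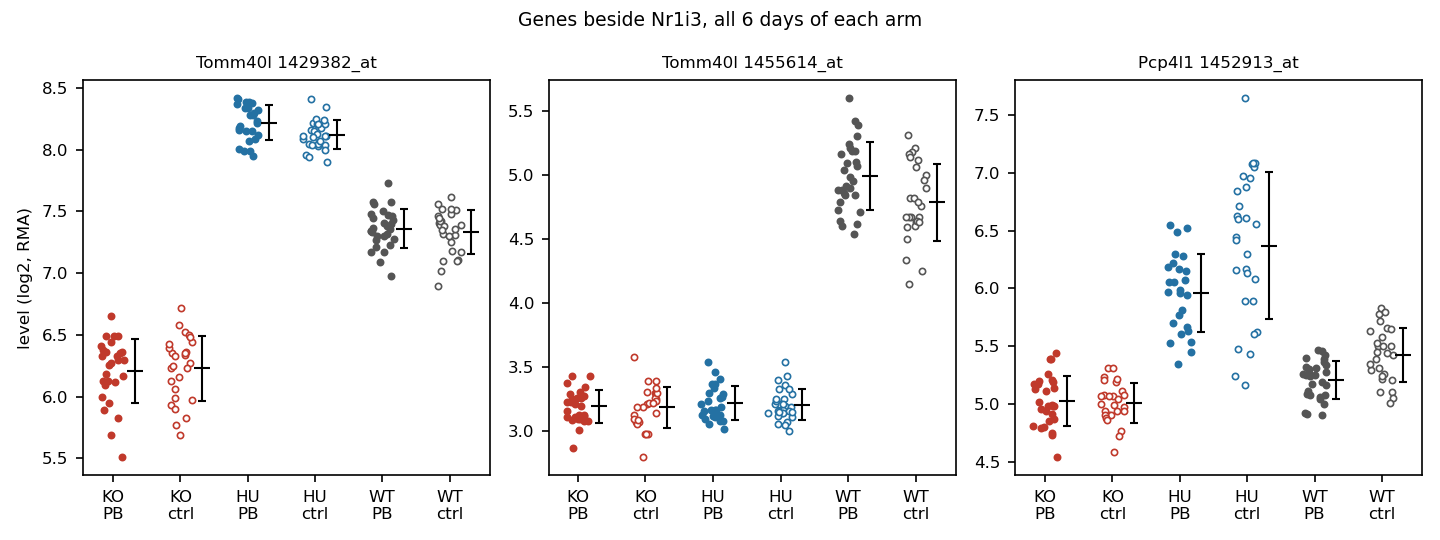
Level (log2, RMA) of both Tomm40l probe sets and of Pcp4l1 in every sample, by genotype and arm (filled points PB, open points control, bars mean and SD). On 1429382_at HU lies above WT and KO below it, on 1455614_at both edited strains lie near 3.2, and Pcp4l1 is highest and most spread in HU controls (SD 0.64).

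The 3 genes farther out moved little. Apoa2 (1417950_a_at), near the top of the array's range, averaged 14.45 ± 0.03 in KO PB and 14.56 ± 0.03 in HU PB, against 14.53 ± 0.04 in WT PB, and 14.45 ± 0.03 in KO and 14.57 ± 0.03 in HU controls, against 14.54 ± 0.03 in WT controls (SD). It was lower in KO by -0.08 ± 0.010 with PB and -0.09 ± 0.010 in controls (adjusted p = 9.59e-11 and 3.56e-13). In HU it was higher by 0.04 ± 0.010 with PB (adjusted p = 0.00136) and 0.03 ± 0.010 in controls (adjusted p = 0.0382). All these are changes of 1.02-fold to 1.07-fold. The call in HU controls was lost in 4 of the 5 refits with 1 animal of each group left out, and the call with PB was lost under quantile normalization (0.02, adjusted p = 0.0632).

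Cfap126 (1429181_at) averaged 6.20 ± 0.16 in KO PB and 6.32 ± 0.15 in HU PB, against 6.30 ± 0.15 in WT PB, and 6.04 ± 0.13 in KO and 6.22 ± 0.13 in HU controls, against 6.25 ± 0.12 in WT controls (SD). It was lower in KO than in WT by -0.10 ± 0.034 with PB (adjusted p = 0.0155) and -0.20 ± 0.035 in controls (adjusted p = 2.36e-06), and did not pass the test in HU (0.00 and -0.03, adjusted p = 0.946 and 0.482). The KO call with PB was lost in 1 of the 5 refits with 1 animal of each group left out (-0.07, adjusted p = 0.229). Sdhc lay at 8.51 ± 0.06 in KO PB, 8.50 ± 0.09 in HU PB and 8.53 ± 0.10 in WT PB on 1435986_x_at, which was called in no comparison. Its other probe set, 1448630_a_at, was called once, in KO against WT controls (-0.06 ± 0.021, adjusted p = 0.0334), and that call was lost without the acinar samples (-0.05, adjusted p = 0.18), without a filter on dim probe sets (0.0546) and in 3 of the 5 refits with 1 animal of each group left out (0.0659 to 0.267).

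The neighbourhood of the 2 edited loci was then read gene by gene, from the order of protein-coding genes in the RefSeq table and 1 probe set a gene. Of the 40 genes nearest to Nr1i3, 20 on each side, 24 were tested. Of these, 7 were called in both arms in the same direction in KO against WT and 5 in HU against WT. Over all 12634 genes that pattern held for 8.82% in KO and 14.8% in HU, and calls in 1 arm were made for 28.3% (KO, PB), 21.6% (KO, controls), 27.6% (HU, PB) and 27.9% (HU, controls). In KO the 7 genes were Tomm40l, Fcgr3, Pcp4l1, Fcgr4, Fcer1g, Cfap126 and Apoa2, of which 4 belong to the genes chosen for this description with results in view. In HU they were Pcp4l1, Tomm40l, Pfdn2, Nit1 and Apoa2. Without the acinar samples the 2 counts were 5 and 4.

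The 3 other genes called in KO encode parts of Fc receptors, which phagocytes use to bind antibody-coated particles. Fcgr3 was higher in KO by 0.33 in both arms (adjusted p = 4.32e-05 with PB and 0.000127 in controls), Fcgr4 by 0.23 and 0.21 (0.0103 and 0.0321) and Fcer1g, the shared signalling chain, by 0.22 and 0.16 (0.00126 and 0.0449). Of 7 tested marker genes of Kupffer cells, the resident macrophages of liver, 4 were called higher in KO than WT with PB (28.3% of all genes were called) and 3 in controls (21.6%). Clec4f (0.24 and 0.22), Vsig4 (0.28 and 0.24) and C1qa (0.33 and 0.25) were called in both arms. Csf1r was called with PB only (0.25), and Cd5l, Adgre1 and Marco in neither arm. The mean level of the 7 markers was 8.20 to 9.35 in KO PB and 8.05 to 9.33 in KO control samples, against 8.10 to 9.15 in WT PB and 8.10 to 9.64 in WT control samples. Their part in the Fc receptor differences was not tested. In HU none of the 7 markers and none of the 3 Fc receptor genes was called in either arm. Pfdn2 (0.13 and 0.08) and Nit1 (-0.07 and -0.06), given here after their values were seen, were the only other genes called in both arms in HU.

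Around Nr1i2, 22 of the 40 nearest genes were tested, 1 was called in both arms in KO (8.82% of all genes) and 3 in HU (14.8%). Beside these shares the counts are not read as a result about the locus, and the genes are given as a description. Arhgap31, a GTPase-activating protein, was higher in KO by 0.14 with PB and 0.12 in controls (adjusted p = 0.000929 and 0.0068). In HU, Gsk3b, the kinase gene next to Nr1i2, was higher by 0.08 and 0.11 (adjusted p = 0.0321 and 0.00374), Hgd, homogentisate dioxygenase of tyrosine breakdown, lower by -0.08 and -0.10 (7.07e-05 and 5.1e-07), and Stxbp5l lower by -0.12 and -0.10 (0.00942 and 0.0291). None of these sizes reached those of Tomm40l or Pcp4l1. Without the acinar samples the counts were 0 in KO and 1 in HU. The median size of the difference over the 22 genes was 0.055 in KO and 0.068 in HU with PB, beside 0.051 and 0.052 over all genes.

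**Figure D3:**
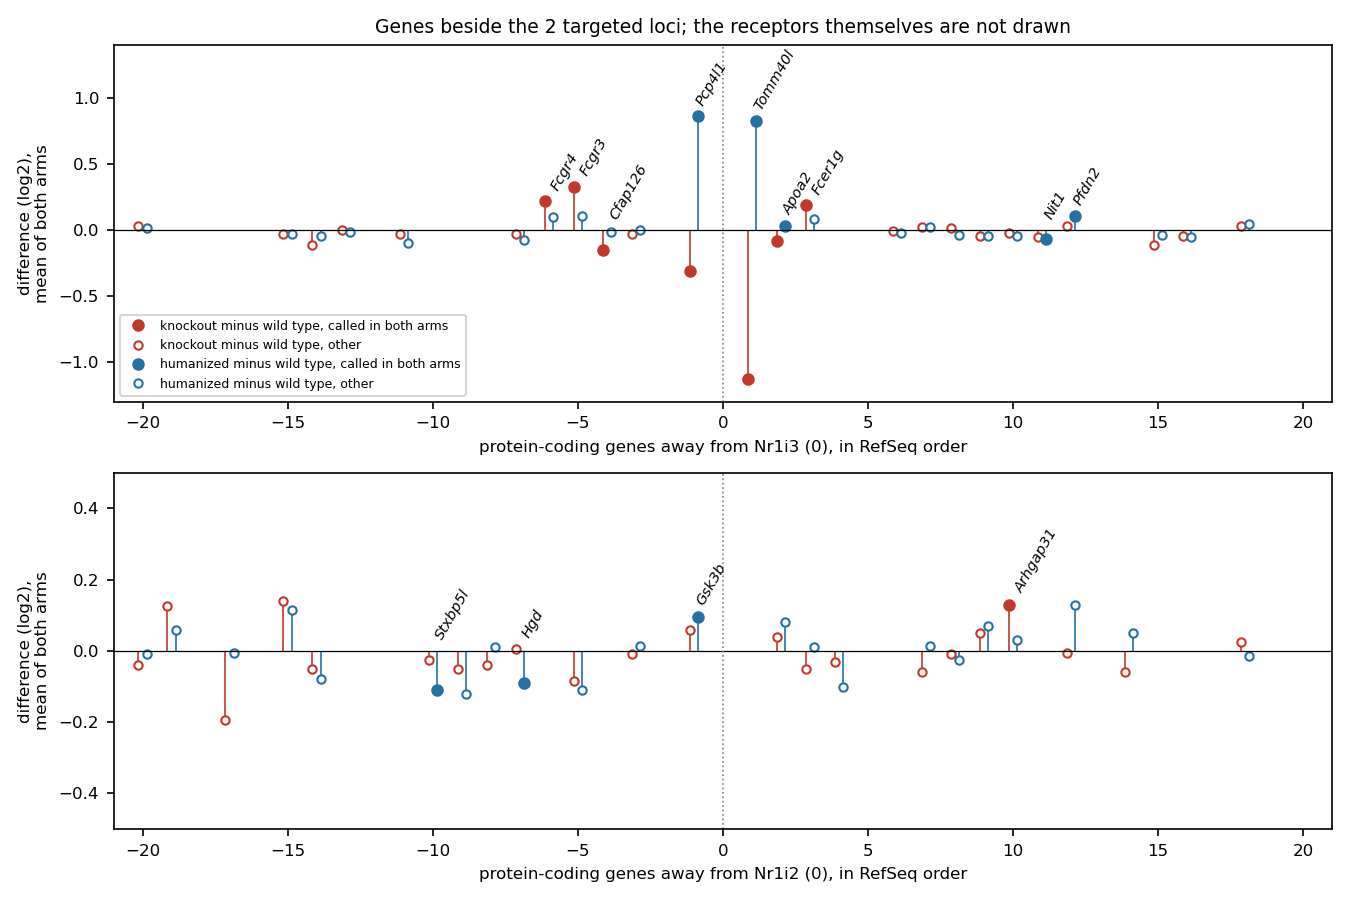
Difference from wild type (log2, mean of the PB and control arms) for the tested genes within 20 protein-coding genes of Nr1i3 (upper panel) and Nr1i2 (lower panel, with a narrower axis), in RefSeq order, with KO in red and HU in blue and filled points for genes called in both arms. Tomm40l (representative probe set 1429382_at) and Pcp4l1 flank Nr1i3 and lie above 0 in HU and below 0 in KO.

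The effect of phenobarbital was taken as the mean difference between arms over the 5 dosing days, within each genotype. In KO 1 of the 10 member probe sets was called (18% of all tested probe sets), in HU 2 (30.3%) and in wild type 3 (27%). At the low levels of the edited strains, Nr1i3 gave 0.05 ± 0.053 in KO and -0.04 ± 0.052 in HU (adjusted p = 0.576 and 0.631). In wild type it was lower with PB, with a difference of -0.20 ± 0.053 (1.15-fold, adjusted p = 0.0017) and 8.20 in 24 PB animals against 8.40 in 22 controls. The PB mean was below the control mean on each of the 5 dosing days (-0.32, -0.14, -0.20, -0.14 and -0.20 on days 1, 7, 14, 28 and 91) and 0.06 above it on day 119. The ranges overlapped on every day. The fit without the acinar samples gave -0.06 on day 1, and those of days 7, 14, 28 and 91 were -0.19, -0.32, -0.14 and -0.15.

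The KO effect on Nr1i3 differed from the WT effect by 0.25 ± 0.075 (limma, adjusted p = 0.0165). Mouse Nr1i3 was edited in KO and HU and its signal there was low, so a PB effect could hardly show in them. Contrasts of these strains with WT therefore mainly restate the wild-type effect and are not read as a response that depends on genotype. Nr1i3 was the 1 member called in KO minus WT, where 10.7% of all probe sets were called. The HU effect differed from the WT effect by 0.16 ± 0.074 (adjusted p = 0.279), and no member was called there (1.97%). Without the 33 acinar samples the wild-type effect was -0.17 (adjusted p = 0.0711) and the KO minus WT difference 0.22 (adjusted p = 0.138), so neither was called. Refits with 1 animal left out gave the wild-type effect between -0.25 and -0.16, called in each, and the KO minus WT difference between 0.20 and 0.30, with the call lost in 3 (adjusted p = 0.0693 to 0.163).

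Nr1i2 showed no call over the dosing days. On 1425723_at the effect in wild type was 0.13 ± 0.056 (adjusted p = 0.0653), and on 1451807_at 0.05 ± 0.056 (adjusted p = 0.53). Quantile normalization put the effect on 1425723_at past the threshold (0.15, adjusted p = 0.0346), as did 3 of the 5 refits with 1 animal of each group left out (0.18, adjusted p = 0.015 to 0.0499). With the refits that left out 1 wild-type animal also counted, 16 of 51 refits called the effect. It ran from 0.05 to 0.18 over these refits (adjusted p = 0.015 to 0.57). Without the acinar samples the effect was -0.02. In KO and HU the effects lay between -0.08 and 0.13 on both probe sets, with adjusted p of 0.105 or more.

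Tomm40l 1455614_at was higher with PB in wild type by 0.17 ± 0.054 (adjusted p = 0.0115), with 4.99 in PB animals against 4.83 in controls (n = 24 and 22). The effect was -0.19 on day 1 and 0.25, 0.23, 0.40 and 0.16 on days 7, 14, 28 and 91. The call was lost in 2 of the 5 refits with 1 animal of each group left out (0.11 and 0.13, adjusted p = 0.139 and 0.094). Leaving out WT control animal 1013 of day 14 gave 0.12 (adjusted p = 0.0607), the fit with only the groups compared gave 0.17 (adjusted p = 0.0936), and the fit without the acinar samples gave 0.25 (adjusted p = 0.00478). In that last fit the effects of days 1, 7, 14, 28 and 91 were 0.21, -0.03, 0.57, 0.40 and 0.10, so days 1 and 7 turned sign and day 14 was called (adjusted p = 0.0166, against 0.287 with all samples). Tomm40l 1429382_at showed no call with PB in any genotype (-0.04 ± 0.055 in KO, 0.08 ± 0.054 in HU and 0.02 ± 0.055 in WT, adjusted p = 0.619, 0.262 and 0.828).

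Pcp4l1 was lower with PB in HU and WT. The effect over the dosing days was -0.62 ± 0.085 in HU (1.54-fold, adjusted p = 8.51e-10), with 5.92 in 23 PB animals against 6.54 in 24 controls. In KO it was 0.01 ± 0.086 (adjusted p = 0.953), with 5.06 against 5.05. Both KO means lay below the array medians, and whether the signal could fall further there was not tested, which limits each contrast with KO. In WT the effect was -0.28 ± 0.085 (1.21-fold, adjusted p = 0.00869), with 5.20 against 5.48. HU and KO effects differed by -0.63 ± 0.121 (adjusted p = 5.04e-05), where 1 of 10 members and 7.65% of all probe sets were called, in a contrast chosen after the values were seen. KO minus WT was 0.29 ± 0.121 (adjusted p = 0.119) and HU minus WT -0.35 ± 0.120 (adjusted p = 0.118), so neither was called, though KO minus WT was in the fit with only the groups compared (adjusted p = 0.00683). The WT call was lost in 1 of the 5 refits with 1 animal of each group left out (-0.25, adjusted p = 0.0792). Without the acinar samples the HU effect was -0.73 (adjusted p = 1.55e-12), the WT effect -0.16 (adjusted p = 0.321, not called) and HU minus WT -0.57 (adjusted p = 0.0102, called), with KO minus WT at 0.17 (adjusted p = 0.544).

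By day, HU animals on PB had 6.17, 6.06, 5.99, 5.70 and 5.67 on day 1, against 7.08, 7.05, 6.97, 6.56 and 5.16 in HU controls, where the last animal stands below all others. On day 28 they had 6.52, 6.19, 6.07, 5.77 and 5.54, against 7.65, 7.09, 6.88 and 6.17 in controls. On day 91 they had 6.22, 6.06, 5.53 and 5.35, against 6.30, 6.13, 6.08, 5.89 and 5.62. On day 119, after recovery, they had 6.55, 6.28 and 5.94, against 6.42, 5.61, 5.48, 5.43 and 5.24, the only day on which the HU mean was higher with PB (0.62, not tested by day). HU control levels were lower on days 91 and 119 (means 6.00 and 5.64) than on days 1 to 28 (means 6.48 to 6.95).

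**Figure D4:**
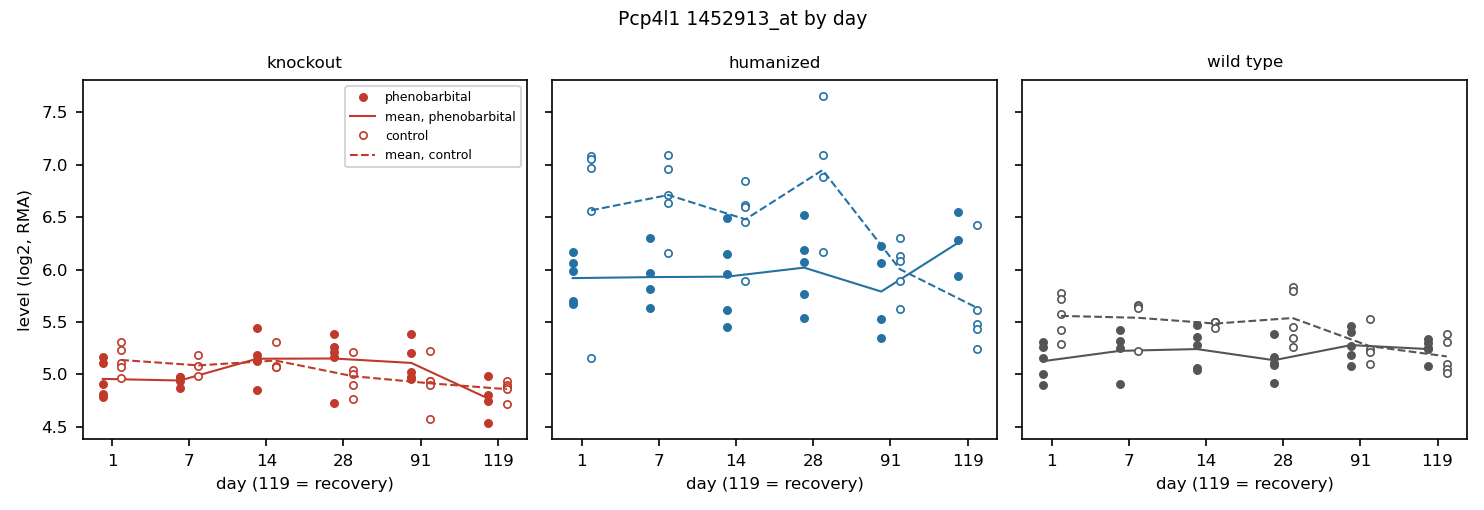
Pcp4l1 level (log2, RMA) of every animal by day in KO, HU and WT mice, with PB as filled points and a solid line through the means and control as open points and a dashed line. In HU the PB means stay between 5.79 and 6.26 while the control means run between 5.64 and 6.95, above PB on days 1 to 91.

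Cfap126 was higher with PB in KO (0.18 ± 0.038, adjusted p = 0.000339) and in HU (0.12 ± 0.038, adjusted p = 0.00852), and in WT the effect was 0.08 ± 0.038 (adjusted p = 0.127). The HU call was lost in 1 of the 5 refits with 1 animal of each group left out (0.10, adjusted p = 0.104). The difference between genotypes did not pass the test for any pair (adjusted p = 0.252 to 0.793). Apoa2 and Sdhc were not called with PB in any genotype in this fit. Under quantile normalization 6 members were called in wild type, with Nr1i2 1425723_at, Apoa2 (-0.03) and Sdhc 1448630_a_at (-0.05) as the added ones, and Apoa2 was also called in HU (-0.05, adjusted p = 0.000479).

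Day by day in wild type, few member probe sets passed the test. On day 1, 1 of 10 was called (9.51% of all probe sets), on day 28 1 (3.87%), and none on days 7 (1.88%), 14 (5.81%), 91 (1.62%) and 119 (0.0194%). None changed its PB effect between days 1 and 91 (0.275%). The day 1 call was Nr1i2 1425723_at, with 6.87, 6.86, 6.85, 6.73 and 6.53 in PB animals against 6.82, 6.59, 6.51, 6.20 and 5.90 in controls (0.36 ± 0.120, adjusted p = 0.0373), and the ranges overlapped. Nr1i2 1451807_at did not show it (0.08 ± 0.119, adjusted p = 0.779), and it was lost without WT control animals 1002 or 1005 or PB animals 2001, 2002, 2003 or 2005, where the adjusted p was 0.0508 to 0.259, and in the fit with only the groups compared (0.2). With the refits that left out 1 animal of each group also counted, the call was lost in 10 of 15 refits (adjusted p up to 0.363). Without the acinar samples the day 1 difference was 0.00 (adjusted p = 1). Nr1i3 on day 1 had 8.20, 8.09, 8.04, 8.03 and 7.74 with PB against 8.59, 8.58, 8.50, 8.16 and 7.87 in controls (-0.32 ± 0.112, adjusted p = 0.0506). It was -0.06 without the acinar samples (adjusted p = 0.972), and without WT control animal 1005 it was -0.44 (adjusted p = 0.00675).

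The day 28 call was Tomm40l 1455614_at, with 5.60, 5.42, 5.21, 5.09 and 5.04 in PB animals against 5.14, 4.96, 4.82, 4.79 and 4.67 in controls (0.40 ± 0.115, adjusted p = 0.0254). It was lost without WT control animals 1016, 1017 or 1018 or PB animals 2016 or 2019 (adjusted p = 0.0614 to 0.146), in 3 of the 5 refits with 1 animal of each group left out (0.0721 to 0.234) and with only the groups compared (0.122), and held without the acinar samples (adjusted p = 0.0153). On day 119 the same probe set had 5.10, 5.07, 4.95, 4.90 and 4.79 in animals that had received PB against 4.67, 4.64, 4.63, 4.59 and 4.25 in controls, without overlap. That difference of 0.41 ± 0.115 had an adjusted p of 0.508 and was not called.

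Wild-type controls also differed by day. The F test over the 6 days called 2 of 10 members (10%), and both were Tomm40l: 1455614_at (adjusted p = 0.00587) and 1429382_at (0.0485). Between days 91 and 1, 1 member was called (3.8%), and between days 119 and 1, 2 (10.4%). Tomm40l 1455614_at averaged 4.60 ± 0.07 on day 91 and 4.56 ± 0.17 on day 119, against 5.07 ± 0.22 on day 1 (SD, n = 4, 5 and 5), differences of -0.47 ± 0.122 and -0.51 ± 0.115 (adjusted p = 0.0102 and 0.000903). Tomm40l 1429382_at averaged 7.10 ± 0.15 on day 119 against 7.44 ± 0.05 on day 1 (-0.34 ± 0.116, adjusted p = 0.0402), without overlap. None of the 3 calls held without the acinar samples, where 1455614_at gave -0.04 (day 91) and -0.23 (day 119) and 1429382_at -0.43 (adjusted p = 0.533 to 0.984), a fit in which the smallest group has 1 sample. The day 119 call of 1455614_at held in each refit with an animal left out. The day 119 call of 1429382_at was lost in 11 of 15 such refits (adjusted p up to 0.166). The day 91 call of 1455614_at was lost in 3 of 14 (adjusted p up to 0.101). The F test count of 2 members was lower in 24 of 32 such refits, down to 0. Nr1i3 was 0.32 ± 0.119 higher on day 91 than on day 1 (adjusted p = 0.109) and had an F test adjusted p of 0.0747.

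**Figure D5:**
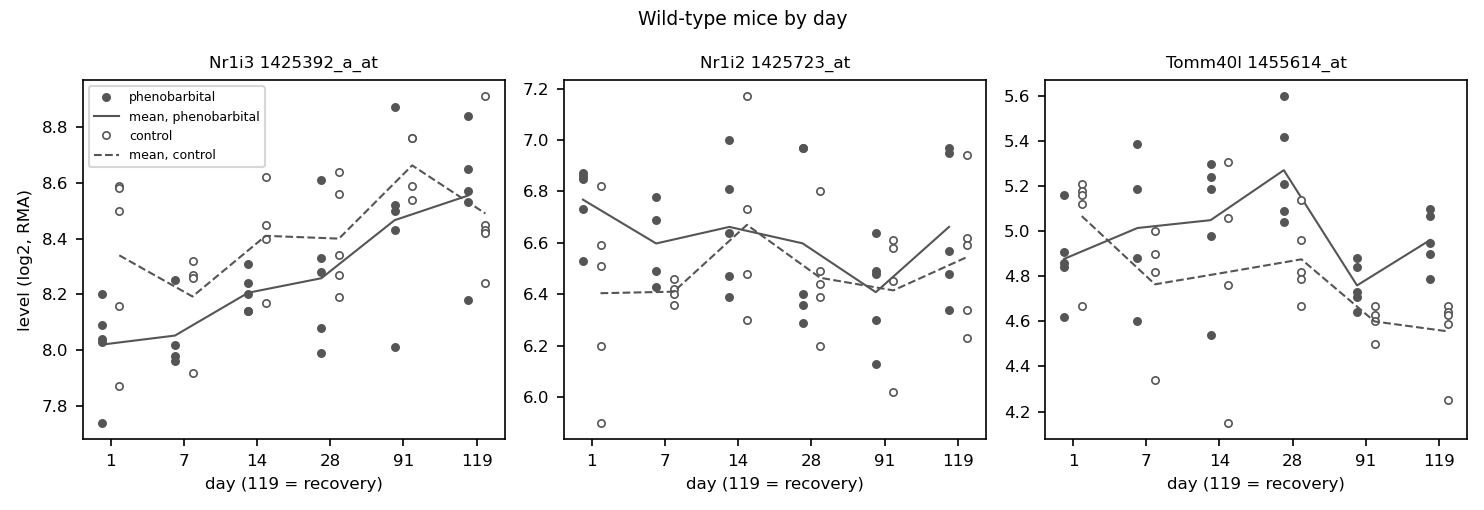
Level (log2, RMA) of Nr1i3, Nr1i2 1425723_at and Tomm40l 1455614_at in every wild-type animal by day, with PB as filled points and a solid line through the means and control as open points and a dashed line. Nr1i3 means are lower with PB on days 1 to 91, and Tomm40l means are higher with PB on days 7 to 119.

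Genes that work with CAR and PXR were read from lists made with earlier results of these data known, with 1 probe set a gene. Over all 12634 genes, 19.1% were called with PB in KO, 31.7% in HU and 30.5% in WT, and the shares called against WT are those given above for the neighbourhoods. Of 11 tested targets, 4 were higher with PB in KO, 10 in HU and 11 in WT (median effect 0.07, 0.93 and 1.21, beside 0.008, -0.002 and -0.013 over all genes). Cyp2b10, a phenobarbital-inducible oxidase, gave 0.17 ± 0.090 in KO (adjusted p = 0.171) and rose by 4.71 ± 0.088 in HU, against 6.50 ± 0.089 in WT. Cyp2c55 gave 0.15 ± 0.074 in KO (adjusted p = 0.156) and rose by 2.84 ± 0.072 in HU and 4.39 ± 0.073 in WT. Gstm3, a glutathione transferase, rose by 0.62 ± 0.083 in KO, 2.64 ± 0.081 in HU and 3.01 ± 0.082 in WT. Abcc4, an export pump, rose by 0.24 ± 0.082 in KO (adjusted p = 0.0267), 2.95 ± 0.080 in HU and 1.81 ± 0.081 in WT. Among controls, 7 of the 11 targets were higher in KO than in WT and 10 in HU. Cyp2b10 differed by -1.05 ± 0.083 in KO controls and by 1.53 ± 0.081 in HU controls.

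Of 15 tested partners and cofactors, 2 rose and 2 fell with PB in KO (19.1% of all genes were called), 1 and 3 in HU (31.7%), and 1 and 7 in WT (30.5%), so the share in HU was below that of all genes. Rxra, the shared dimer partner, fell by 0.16 in HU and 0.15 in WT, and Ep300, an acetyltransferase coactivator, fell by 0.19 in WT. Hsp90aa1, a chaperone that holds CAR in the cytoplasm, rose by 0.28 in KO, 0.29 in HU and 0.24 in WT. Nr0b2, the corepressor SHP, was lower by -0.33 in KO than in WT controls (adjusted p = 0.0356). Against WT, 1 partner was higher and none lower in KO with PB, 3 were lower in KO controls, and in each HU arm 1 was higher and 1 lower.

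Of 11 tested regulators of receptor expression, none rose with PB, 5 fell in each of KO (19.1% of all genes called) and HU (31.7%) and 4 fell in WT (30.5%), which in WT is close to the share of all genes. Ppara, the fatty-acid receptor, fell by 0.28 in KO, 0.53 in HU and 0.50 in WT. Foxa3, a liver transcription factor, fell by 0.26 in KO, 0.52 in HU and 0.50 in WT. Egfr fell by 0.65 in KO, 0.78 in HU and 0.68 in WT. Between genotypes, 3 were higher in KO than in WT with PB, Cebpb was higher in HU than in WT with PB (0.37, adjusted p = 0.000817), and in controls 1 was higher and 1 lower in KO and none was called in HU.

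Of 19 other tested liver nuclear receptors, 4 were higher and 3 lower in KO than in WT with PB (28.3% of all genes were called), 5 and 3 in KO controls (21.6%), 5 and 5 in HU with PB (27.6%) and 5 and 4 in HU controls (27.9%). Esr1, oestrogen receptor alpha, was higher in KO by 0.67 ± 0.058 with PB and 0.71 ± 0.060 in controls, and in HU by 0.32 ± 0.059 and 0.23 ± 0.058. Nr1d2, a clock repressor, was higher in KO controls by 0.48 ± 0.117 (adjusted p = 0.000972) and in HU by 0.42 ± 0.116 with PB and 0.84 ± 0.114 in controls. With PB its KO difference was 0.06 ± 0.113 (adjusted p = 0.741). With PB, 2 receptors rose and 1 fell in KO, 6 and 3 in HU, and 5 and 4 in WT. In KO, Rarb gave 0.30 (adjusted p = 0.103) and Ahr, the dioxin receptor, -0.05 (adjusted p = 0.762). Rarb rose by 0.52 ± 0.132 in HU and 0.91 ± 0.133 in WT, and Ahr by 0.44 ± 0.088 in HU and 0.89 ± 0.089 in WT.

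Over the 36 group means, the gene most like Nr1i3 was Nr1i2 1451807_at (Pearson r = 0.995), followed by Tmem254a (0.923), Ctr9 (0.911), Nthl1 (0.901) and Mbnl1 (0.889). The 5 genes most like Nr1i2 were Nr1i3 (0.995) and the same 4, with Ctr9 (0.931) ahead of Tmem254a (0.927). These r values mainly rank genes by a drop in both edited strains, since the means differ most by genotype, and the group means share arrays. Ctr9, a subunit of the PAF1 elongation complex, was lower in KO by -0.36 with PB and -0.38 in controls and in HU by -0.48 and -0.47. Tmem254a was lower by -0.49 and -0.42 in KO and -0.55 and -0.61 in HU.

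Within wild-type groups the receptors had other companions. Over the 56 wild-type animals with group means removed, the genes most like Nr1i3 were Pon1 (r = 0.669), a paraoxonase of HDL, B330016D10Rik (0.647), Jagn1 (0.633), Aldh3a2 (0.624), a fatty aldehyde dehydrogenase, and Pex11a (0.623), a peroxisome protein. The genes most like Nr1i2 1451807_at were Cyp2d13 (0.674), Vapb (0.663), Dlc1 (0.662), Ctage5 (0.655) and Aspscr1 (0.651). None of the 10 appears in both lists. Pex11a was lower with PB in wild type, as Nr1i3 was (-0.27, adjusted p = 0.00218). Nr1i3 itself had r = 0.35 with Pcp4l1 and -0.24 and -0.04 with the Tomm40l probe sets 1429382_at and 1455614_at among these animals.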

How the data were processed

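The deposited values are log2 levels per probe set, normalised by the authors with RMA per the submitters' processing notes. Its version and any genome build were not given in the sources used here. Probe sets were named from the platform annotation, and gene order and promoters came from RefSeq tables. limma 3.58.1 in R 4.3.3 was fitted to 36 group means over 166 samples (residual df 130), with contrasts over days, empirical Bayes and Benjamini-Hochberg adjustment over the 25780 probe sets above their array's median on at least 3 arrays. The other 19257 were not tested. Fits were tested on simulated data. Near-identical arrays were sought over 13861 pairs, using 4201 probe sets with a mean of at least 9. The p-values test differences between group means. Their error is the spread between animals within groups, pooled over the 36 groups and moderated by empirical Bayes. Array number limits precision.

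Named genes are all member probe sets, up to 6 neighbours per locus called in both arms, up to 4 genes per pathway list, and the 5 genes most correlated with each receptor. Members and lists were chosen with earlier results of these data known. Alternatives were quantile normalization, other filters, 1 probe set a gene, each array as a sample, robust trended variances, only the groups compared, and leaving out animals. The fit without samples above 5.5 for acinar markers and the HU minus KO contrast of PB effects were added after seeing the data.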

Additional observations from a re-analysis of the deposited data

Results flagged for a closer look

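In 15 of 204 combinations of 6 probe sets and groups of at least 4 samples, 1 animal lay apart from the others of its group by Dixon's test, where chance gives about 1 in 20. The values are given with no explanation.

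Nr1i3 was 5.28 in HU PB animal 6013 of day 14 (others 4.96 to 5.02) and 7.92 in WT control animal 1008 of day 7 (others 8.26 to 8.32). Nr1i2 1425723_at was 3.74 in KO control animal 3012 of day 14 (others 3.51 to 3.54), 3.86 in KO control 3018 of day 28 (3.53 to 3.56) and 4.02 in HU control 5008 of day 7 (3.65 to 3.72). Nr1i2 1451807_at was 3.65 in KO control 3025 of day 91 (3.45 to 3.49), 3.38 in HU control 5007 of day 7 (3.78 to 3.88), 3.98 in HU control 5019 of day 28 (3.62 to 3.68) and 6.91 in WT control 1022 of day 91 (7.44 to 7.54).

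Tomm40l 1455614_at was 4.67 in WT control 1004 of day 1 (5.12 to 5.21) and 4.25 in WT control 1029 of day 119 (4.59 to 4.67). Pcp4l1 was 5.31 in KO control 3011 of day 14 (5.07 to 5.08), 5.16 in HU control 5004 of day 1 (6.56 to 7.08), 5.22 in WT control 1008 of day 7 (5.63 to 5.66) and 5.44 in WT control 1011 of day 14 (others at 5.5). Animal 1008 stood low on both Nr1i3 and Pcp4l1.

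In 2 cases the test of the difference itself in limma called the PB effects of 2 genotypes different: Nr1i3 by 0.25 (KO minus WT, adjusted p = 0.0165) and Pcp4l1 by -0.63 (HU minus KO, adjusted p = 5.04e-05). The Nr1i3 signal in KO is too low to show an effect, so that contrast mainly restates the wild-type effect. The mean Pcp4l1 level in KO also lay below the array medians, where a fall may not show.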

How the results depend on the processing

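Of 706 tested values of the main results under other settings, 692 kept their direction and call, 13 lost the call and 1 gained it. These values include the differences from WT of Nr1i2 1451807_at and Tomm40l 1455614_at, which were tested through wild type alone. They also include those of the edited gene Nr1i3. Such differences had to keep their call, so the tally is not read as a measure of how stable the other results are. Of 538 counts, 364 were equal to the reported count and 433 lay within 1.5 times of it. The differences of both receptors and of Tomm40l from WT kept their direction and call under every setting that tested the probe set. Tomm40l 1455614_at was above the array's median on 0 of 55 KO, 0 of 55 HU and 8 of 56 WT samples. It was thus not tested with at least 20 arrays above their median. With 1 probe set a gene, only 1 probe set each of Nr1i2 and Tomm40l was tested. Counts of members called that moved by over 1.5 times were as follows, and their causes were not tested. Without the acinar samples (fewer samples) they were 1 (PB in WT), 1 (PB, HU minus WT), 0 (PB, KO minus WT), 0 (day 1), 1 (day 14), 0 (day 91 minus day 1 in WT controls) and 0 (day 119 minus day 1), with 0 (KO) and 1 (HU) neighbours of Nr1i2. Quantile normalization gave 6 (PB in WT), 2 (PB, KO minus WT) and 2 (day 1). The groups compared alone gave 2 each for PB in KO, PB KO minus WT, PB HU minus KO and day 91 minus day 1, 0 for day 28 and 1 for the F test. With at least 20 arrays above their median the counts were 2 (day 1), 0 (day 28), 0 and 1 (days 91 and 119 minus day 1) and 1 (F test). With 1 probe set a gene they were 0 (day 28), 0, 1 and 1 for the same 3. Without a filter they were 0 (day 1), 1 (day 119 minus day 1) and 1 (F test), and with every array as a sample 2 (day 1). The Nr1i3 locus held 3 HU calls with 10 genes each side and the Nr1i2 locus 2 KO calls with 40.

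Single results that changed in limma were Nr1i3 with PB in WT (-0.17, adjusted p = 0.0711, acinar samples out), Pcp4l1 with PB in WT (-0.16, 0.321, likewise), Nr1i2 1451807_at with PB in KO (0.13, 0.0295, groups compared alone), Tomm40l 1455614_at with PB in WT (0.17, 0.0936, likewise) and Pcp4l1 in KO against WT with PB (-0.20 without a filter, -0.19 with quantile normalization, -0.17 without the near-identical KO arrays). Leaving out animals gave Pcp4l1 -0.24 to -0.17 (KO minus WT, PB) and -0.30 to -0.25 (PB in WT), and Tomm40l 1455614_at 0.11 to 0.23 (PB in WT). Counts that moved by over 1.5 times without an animal ran from 4 to 7 (HU minus KO, controls), 3 to 5 (the same with PB), 1 to 2 (PB in HU), 0 to 1 (PB in HU minus WT, PB in KO minus WT, day 14, day 28 and day 91 minus day 1), 0 to 2 (day 1 and the F test) and 1 to 2 (day 119 minus day 1). Neighbours called in both arms ran from 3 to 5 (HU) and 4 to 6 (KO) at Nr1i3 and from 1 to 3 (HU) and 0 to 1 (KO) at Nr1i2. No paired analysis was possible because animal numbers are unique to each animal.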

Other observations

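Genes of hepatic stellate cells, which store vitamin A, differed between KO and WT, and with PB in HU and WT. In HU against WT, 0 markers were higher and 1 was lower in each arm, with a median difference of -0.06 with PB and -0.07 in controls. Of all genes, 27.6% and 27.9% were called in these 2 comparisons. Of 6 markers tested, 5 were higher in KO than in WT with PB (28.3% of all genes were called) and 4 in controls (21.6%) (median difference 0.32 and 0.12, beside 0.004 and -0.01 over all genes). With PB, 0 were called in KO (19.1% of all genes were called), 4 were lower in HU (31.7%) and 5 in WT (30.5%) (median effect -0.03, -0.19 and -0.20). Their mean level was 8.85 to 9.32 in KO PB, 8.38 to 8.96 in HU PB and 8.49 to 9.05 in WT PB samples. Of 3 lymphocyte markers tested, 0 were higher with PB in KO, 2 in HU and 1 in WT, a list too short to set beside the same shares.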
